A study of Rattus norvegicus with 241 samples.

Results

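The tumor necrosis factor (TNF) superfamily was examined in rat mammary cells, as ligands and receptors, by cell type and by exposure to an inhibitor of the TGFβ type I receptor (TGFBRi). Its members were taken by symbol: every TNFSF and TNFRSF gene with a number, plus TNF, FAS, FASLG, LTA, LTB, CD27, CD40, CD40LG and CD70, and without RANKL, RANK and osteoprotegerin (TNFSF11, TNFRSF11A and TNFRSF11B). The rule found 35 genes, 16 ligands and 19 receptors, among the 21707 genes of all tables. Of these, 33 were listed in bulk tables, 26 in single cells sorted from ACI rats, 27 in single cells sorted from SD rats and 33 in single cells of whole SD glands. TNF and TNFRSF10B were listed only in bulk tables, and TNF only in those of adult and E2 rats. TNFRSF13C and TNFSF18 were listed only in single-cell tables.

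TNF family ligands are mostly membrane proteins that can be shed, and they signal as trimers to receptors on neighboring cells. Receptors with a death domain, such as FAS and TNFRSF1A, can start caspase-driven death or NF-κB signaling, while most others bind TRAF adaptors and activate NF-κB. In the immune system, pairs such as CD40LG with CD40, CD70 with CD27 and TNFSF18 with TNFRSF18 costimulate lymphocytes, and in the mammary gland the family is best known for RANKL, which was not part of the set.

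TGFBRi was LY2157299 (galunisertib), given by gavage at 75 mg/kg 2 times a day, for 10 days except in the E2 experiment, where it was 21 days; controls received the vehicle. Young female ACI rats were dosed from 35 days of age and sampled on day 0, 7 or 14 after the last dose with 3 rats per group, while dosing of young SD rats began at 24 days, with groups of 4 sampled on day 0. Dosing of adult virgin and parous ACI rats began at 18 to 24 weeks of age, in groups of 4, except for CD45+ cells, which came from 4 vehicle and 3 TGFBRi virgin and 2 vehicle and 4 TGFBRi parous rats. In the NMU experiment, SD rats dosed from 21 days of age all received the carcinogen NMU at 50 mg/kg and were sampled 87 days later as vehicle tumor-bearing, TGFBRi tumor-free and TGFBRi tumor-bearing groups of 3, with tumors of 3 rats per treatment. In the E2 experiment, ACI rats dosed from 38 days of age carried an implant with estradiol or an empty one, and were sampled at the end of that experiment: 4 vehicle rats without and 4 with E2, the latter all tumor-bearing, 3 TGFBRi rats without E2, 4 tumor-free TGFBRi rats with E2 that gave 7 samples, and 2 tumor-bearing TGFBRi rats with E2. Bulk fractions were CD24+CD29high basal cells, CD24+CD29low luminal cells and CD45+ leukocytes, and tumors were sorted as EPCAM+ and CD45+ cells. Single cells were taken on day 0 from young rats, dosed from 35 days of age in ACI and 24 days in SD rats: from sorted basal and luminal cells of 3 vehicle and 3 TGFBRi ACI rats, from the same sort of 3 vehicle and 6 TGFBRi SD rats, and from unsorted whole glands of 3 vehicle and 6 TGFBRi SD rats. The last used 5′ chemistry and the sorted cells 3′ chemistry.

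Bulk samples held 4194912 to 52314784 reads on genes. The single-cell sets held 16762 sorted ACI cells, 39766 sorted SD cells and 103524 whole-gland cells, with median UMIs per cell of 2820 to 15941 across libraries, and any pair of libraries shared at most 2.51% of cell barcodes. Cells were clustered without the family's genes, and clusters were called after a cell type ("-like") by fixed markers, which were detected in their classes. Clusters that the markers did not name clearly were left out of all class levels and tests. In whole glands these held 3316 vehicle and 3975 TGFBRi cells, among them a cluster of 1801 led by IL1B and CCL3. They held 1238 and 1075 cells in sorted ACI and 334 and 1356 in sorted SD rats. Among the 3 vehicle CD45+ samples of young ACI rats on day 0, replicate 1 differed from the other 2 in T cell markers. It had 2578 reads on them per 1000000 reads on genes (reads per 1000000 are called RPM below), against 128 and 180. Which of the 3 are unusual was not tested. Among whole glands, the vehicle rat labelled veh4 had the highest sum of heat shock genes of the 3 vehicle rats in 12 of 13 classes, with 3384 per 1000000 UMIs (called CPM below) in B cell-like cells against 942 and 895 in the other 2. This list was chosen after the data were seen, and its part in the results was not tested.

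Most members were highest in leukocytes. Of the 33 members listed in vehicle whole glands, 25 had their highest median among the 13 named classes in leukocyte-like cells. For 5 it was in epithelium-like cells and for 3 in other stromal classes. Levels are CPM over all cells of a class in a rat, with the median over 3 rats, and as the classes were built from the same cells they are described without a test. For scale, CD27, a marker of T and NK cells, had a median of 403 in T cell-like cells, 128 in NK cell-like cells and 1.36 in B cell-like cells. Whether such low values came from free RNA, doublets or the cells themselves was not tested.

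**Figure D1:**
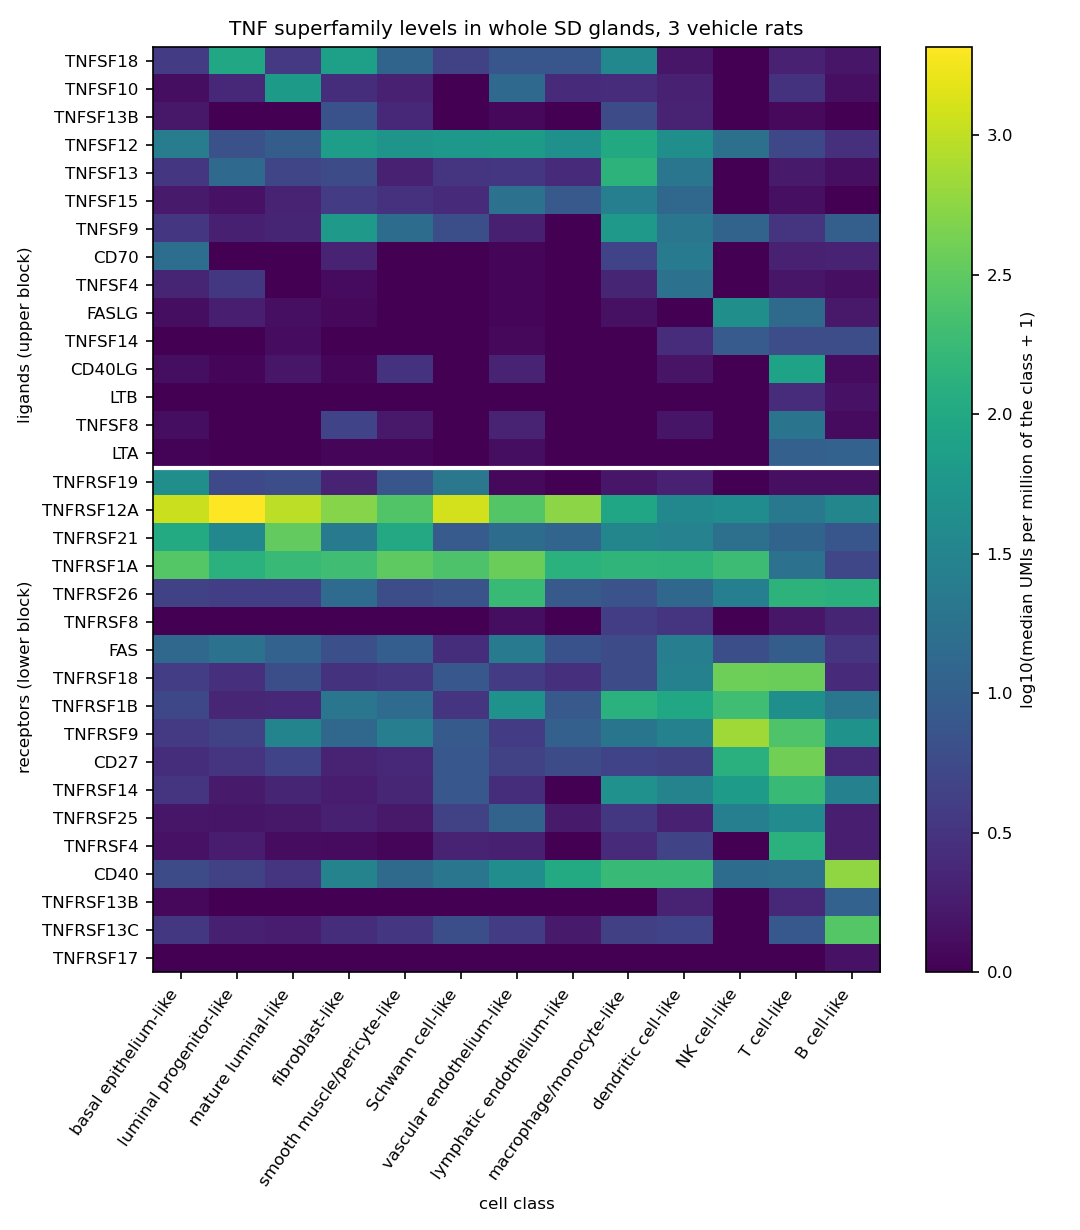
Levels of the 33 members (rows, ligands in the upper block and receptors in the lower) in 13 cell classes (columns) of vehicle whole glands. Color is log10 of the median CPM over 3 rats plus 1. TNFRSF12A is highest in luminal progenitor-like cells, and most costimulatory receptors are highest in lymphocyte columns.

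B cell-like cells carried the receptors for B cell help and survival. CD40, which receives T cell help, had 577 CPM there against 171 in dendritic cell-like, 170 in macrophage-like and 106.4 in lymphatic endothelium-like cells. TNFRSF13C, the receptor for the survival ligand BAFF, had 278, and TNFRSF13B, which binds both BAFF and APRIL, had 10.2. BAFF itself, TNFSF13B, was low in all named classes and highest in fibroblast-like cells with 5.90, and APRIL, TNFSF13, in macrophage-like cells with 139. Receptors and ligands of B cell survival were highest in different classes.

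T and NK cell-like cells carried the costimulatory receptors. CD40LG had 83.1, TNFRSF14 (HVEM) 177 and TNFRSF4 (OX40) 132 CPM in T cell-like cells. TNFRSF18 (GITR) was close to equal in NK and T cell-like cells, with 389 and 373, and TNFRSF9 was 693 in NK and 254 in T cell-like cells. FASLG, the death ligand of cytotoxic cells, had 44.3 in NK and 12.8 in T cell-like cells.

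The T cell-like class was not uniform. The cluster led by ICOS and FOXP3, genes of regulatory T cells, had 598 CPM of TNFRSF4, 823 of TNFRSF9 and 607 of TNFRSF18. In the cluster led by CD3D, CD8A and LEF1, TNFRSF4 had 23.7, TNFRSF9 61.97 and TNFRSF18 306, while CD27 had 474 and TNFRSF14 251. The cluster led by IL22 and RORA held 43.1 of LTA, a lymphotoxin, 86.6 of TNFRSF25, 441 of TNFRSF9 and 510 of TNFRSF18. Among dendritic cell-like clusters, the one led by CCL17, CCL22 and FSCN1 had 311 of CD40, 53.8 of CD70 and 68.7 of FAS.

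In epithelium-like cells the leading member was TNFRSF12A (Fn14), the receptor of TNFSF12 (TWEAK). Its medians were 2073 in luminal progenitor-like, 1139 in basal-like and 962 in mature luminal-like cells, against 512 in fibroblast-like and 20.7 in T cell-like cells. TNFRSF21, a death domain receptor, had 330 in mature luminal-like and 106.2 in basal-like cells, and TNFRSF19 (TROY) 43.04 in basal-like cells. The death ligand TNFSF10 (TRAIL) had 63.3 in mature luminal-like and 12.6 in vascular endothelium-like cells. TNFSF18, the ligand of GITR, had 94.2 in luminal progenitor-like, 74.6 in fibroblast-like and 34.4 in macrophage-like cells. TNFSF12 was spread over macrophage-like (103.9), fibroblast-like (68.9) and vascular endothelium-like cells (63.4). TNFRSF1A, the broadly expressed TNF receptor, had 368 in vascular endothelium-like, 308 in smooth muscle-like and 275 in basal-like cells, and 4.1 in B cell-like cells.

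In bulk, the family was compared between day 0 basal and luminal cells of vehicle rats. A lower bulk level can mean fewer cells of a type or less RNA per cell, which cannot be told apart. Levels below are RPM of recovered reads, and tests are limma on log2 of the normalized value plus 1, with p adjusted over all genes and a threshold of 0.05. RPM and the authors' normalized values are scaled differently. In SD rats the tested differences are shifted toward luminal cells relative to the RPM. In ACI rats 6 of 30 tested members passed, 5 higher in basal cells and 1 lower, where 20.5% of all genes passed, and the members' median difference was 0.80 against 0.21 over all genes. In SD rats 11 of 25 passed, 7 higher and 4 lower, where 50.1% of all genes passed. In neither strain was the members' share above that of all genes.

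TNFSF10 was the luminal ligand in both strains. In ACI rats its RPM were 1.92, 1.38 and 6.54 in basal cells, against 60.7, 45.8 and 41.7 in luminal cells. The groups did not overlap, and the log2 difference was -4.24 (SE 0.57, limma adjusted p = 2e-06). In SD rats the basal values were 3.65, 2.06, 4.77 and 5.47 and the luminal values 6.29, 13.1, 6.14 and 23.2, again without overlap (-2.01, SE 0.48, limma adjusted p = 0.0020). TNFRSF10B, a receptor of TRAIL, was higher in basal cells of both strains (1.57 in ACI, SE 0.53, and 3.02 in SD rats), but the ACI call was lost without 4 of 6 libraries in turn, and with the rat as a block, which pairs fractions of 1 animal (limma adjusted p = 0.063).

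Of the TWEAK pair, the ligand was called in ACI and the receptor in SD rats. TNFSF12 had 50.9, 72.8 and 57.6 RPM in ACI basal cells and 17.4, 18.6 and 20.4 in luminal cells, a log2 difference of 1.62 (SE 0.40, limma adjusted p = 0.0032). In SD rats TNFSF12 did not pass (0.75, SE 0.35, limma adjusted p = 0.080), with 50.2, 41.9, 50.5 and 64.2 in basal and 37.99, 12.5, 18.1 and 20.9 in luminal cells. These RPM did not overlap, and a difference between the strains in TNFSF12 was not tested. TNFRSF12A in SD rats had 755, 665, 688 and 954 in basal and 4476, 2845, 4768 and 2325 in luminal cells (-2.74, SE 0.40, limma adjusted p = 2.7e-05). Every luminal sample exceeded every basal one. TNFRSF12A did not pass in ACI rats, where the medians over vehicle samples of all days were 970 in basal and 1020 in luminal cells; a difference between the strains was not tested.

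TNFRSF19 (TROY) was higher in SD basal cells. It had 124, 153, 140 and 54.3 RPM in basal cells, against 4.42, 10.8, 5.80 and 14.6 in luminal cells, without overlap (3.21, SE 0.41, limma adjusted p = 6e-06). TNFRSF1A was higher in basal cells of both strains, by 0.84 in ACI (SE 0.22, limma adjusted p = 0.0064) and 0.68 in SD rats (SE 0.23, limma adjusted p = 0.020), and each call was lost without 1 library (luminal replicate 3 in ACI and basal replicate 4 in SD rats). In ACI rats TNFRSF1B, the TNF receptor of leukocytes and endothelium, had 43.95, 26.8 and 30.4 in basal and 5.43, 2.41 and 6.19 in luminal cells (2.86, SE 0.63, limma adjusted p = 0.0011). TNFSF13 was lower in SD basal cells, with 24.6, 16.5, 27.6 and 25.2 against 68.2, 35.3, 48.2 and 56.3 (-1.69, SE 0.30, limma adjusted p = 0.00017). Beside these, fibroblast markers were higher in basal than in luminal cells, with a median log2 difference of 2.20 in ACI and 5.03 in SD rats, and endothelium markers by 2.56 in ACI rats; their part in the family's differences was not tested. The remaining basal genes were TNFRSF26 in ACI (3.22, SE 1.00) and SD rats (3.40, SE 0.99), and TNFSF13B (2.64, SE 0.62), TNFSF15 (2.34, SE 0.91) and CD70 (2.24, SE 0.81) in SD rats, where FAS was lower (-1.82, SE 0.42). The TNFSF15 and CD70 calls were lost without 5 and 3 of 8 libraries in turn, and TNFRSF26 in ACI rats without 3 of 6.

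**Figure D2:**
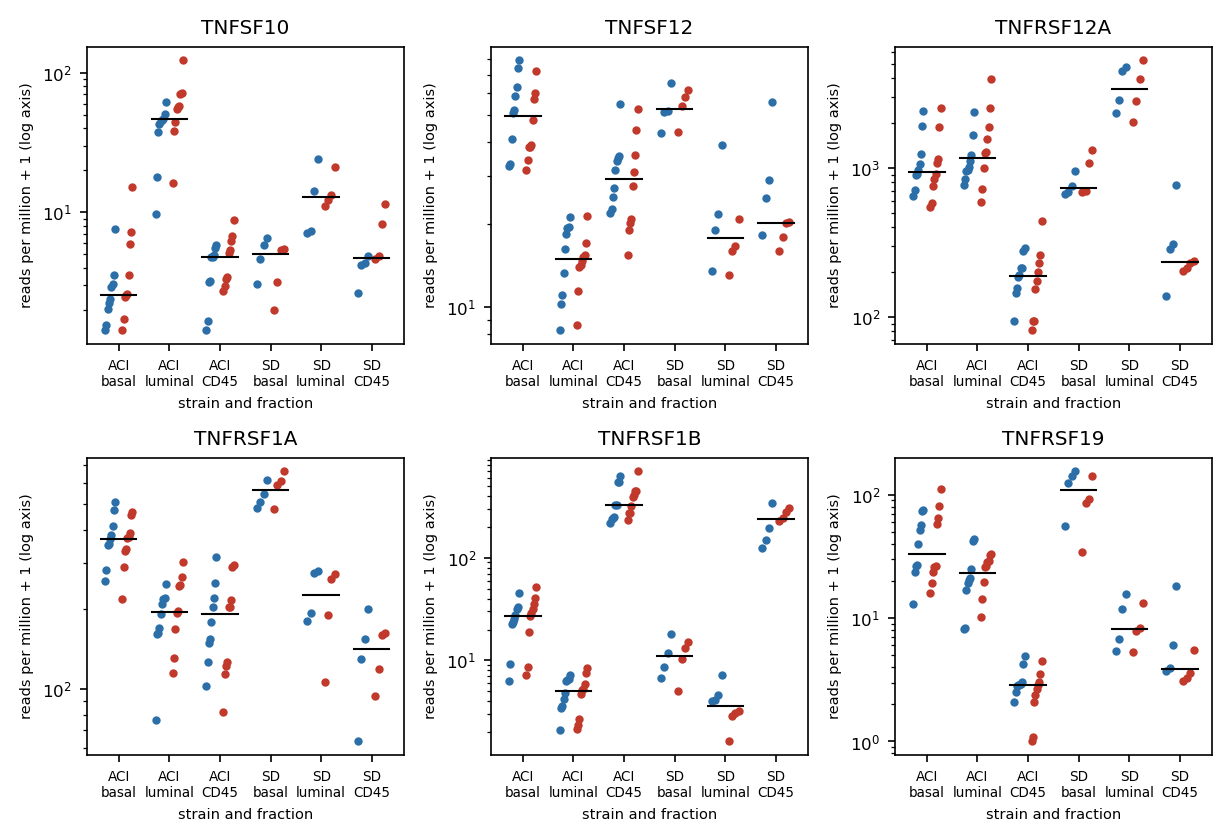
RPM plus 1 (log axis) of TNFSF10, TNFSF12, TNFRSF12A, TNFRSF1A, TNFRSF1B and TNFRSF19 in sorted cells of young ACI (days 0, 7 and 14) and SD rats, with blue points for vehicle, red points for TGFBRi and a line at the median of all. TNFSF10 is high in luminal cells, and TNFRSF1B is high in CD45+ cells.

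Set beside the epithelial fractions, CD45+ cells of vehicle young ACI rats held the lymphocyte receptors. The fractions were scaled separately, so these are side-by-side levels with no test. CD27 had a median of 113 RPM in CD45+ cells against 0.397 in basal and 0.186 in luminal cells, and CD40 had 156 against 2.10 and 0.791. TNFRSF12A ran the other way, with 190 in CD45+ cells and 970 and 1020 in basal and luminal cells, and TNFRSF21 likewise had 89.1 against 327 and 489. TNF, the ligand that names the family, was listed in adult and E2 rats, where vehicle adults had medians of 4.23 in CD45+, 0.167 in basal and 0.444 in luminal cells, and it passed in none of its 20 tests.

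Leukocytes sorted from NMU-induced tumors of vehicle rats differed in several receptors from leukocytes of the glands of NMU-treated rats, and the genes given were chosen after their values were seen. TNFRSF4 had 448, 1214 and 1227 RPM in CD45+ cells of vehicle tumors and 15.1, 63.4 and 17.6 in those of vehicle glands, a ratio of medians of 68.8. TNFRSF9 had 476, 970 and 1198 against 118, 99.6 and 76.7 (9.73), and TNFRSF18 had 180, 536 and 383 against 56.6, 73.2 and 68.6 (5.58). CD40, the receptor of B cells and antigen-presenting cells, went the other way, with 85.8, 20.9 and 24.96 in tumors against 178, 243 and 123 in glands. Groups of these 4 genes did not overlap, and the share of all genes whose groups were apart was not counted. TNFRSF12A was lower in tumors too, with 28.7, 52.8 and 43.7 against 953, 859 and 592, a ratio of medians of 0.0509. The ratio was 0.0786 for TNFRSF26 and 0.213 for TNFRSF1A. Among other lymphocyte receptors the ratio was 1.34 for TNFRSF8, 1.84 for CD27, 1.94 for TNFRSF14, 3.94 for TNFRSF25 and 5.35 for TNFRSF13B. Among ligands it was 7.34 for CD70 and 5.25 for TNFSF14, on gland medians of 1.34 and 2.01 RPM. Those of TNFSF8 (36.2) and LTA (9.94) rested on gland medians of 0.101 and 0.0612 RPM. TNFRSF4 in TGFBRi tumors had 881, 689 and 456, within the range of vehicle tumors. No test was made, and tumors and glands were scaled separately. Vehicle tumor and vehicle gland samples came from the same rats, and this pairing was not used. The cells differed in makeup too: T cell markers summed to 1445 to 5595 RPM in vehicle tumors against 725 to 1167 in glands, and B cell markers to 26.02 to 81.8 against 192 to 993. Luminal epithelium markers summed to 239.7 to 341.5 in tumors against 3363 to 4266 in glands, basal epithelium markers to 37.5 to 78.7 against 312 to 460 and fibroblast markers to 560 to 1649 against 12630 to 27600. The part of this makeup in the family's levels was not tested.

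**Figure D3:**
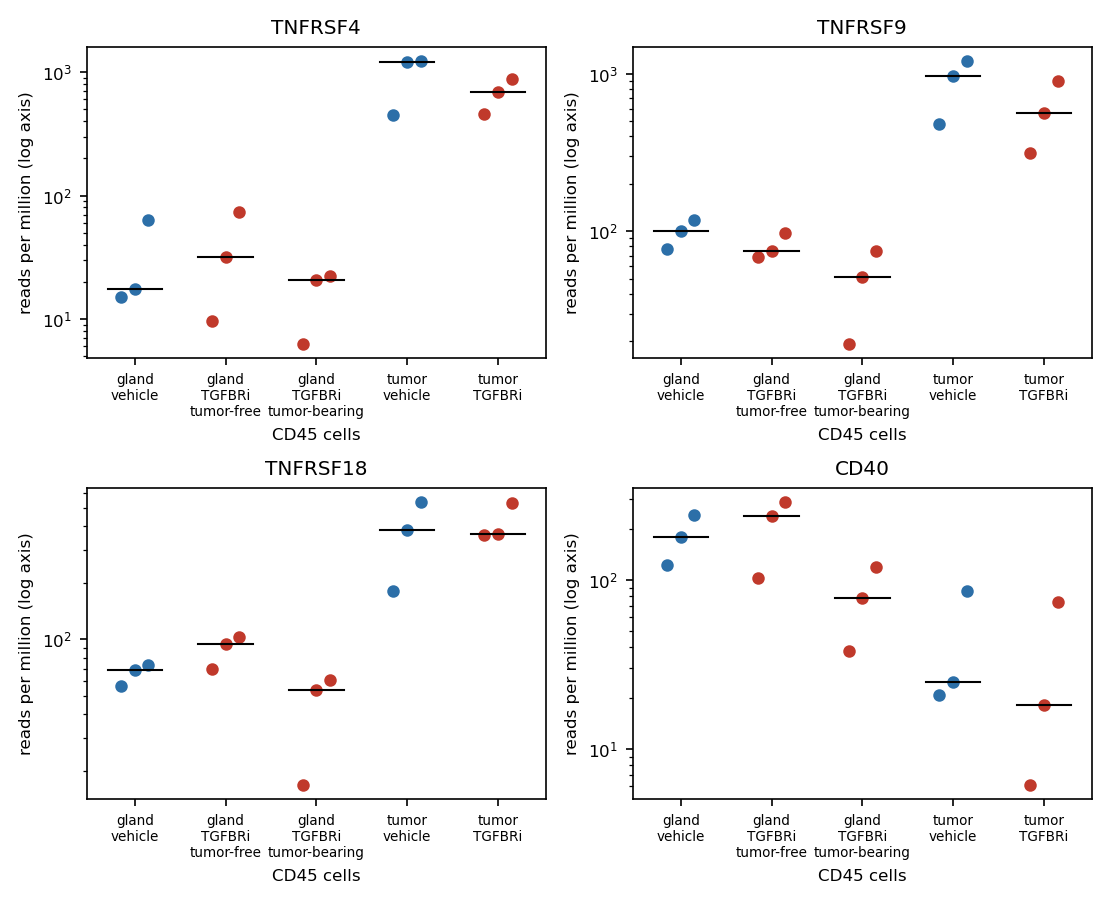
RPM (log axis) of TNFRSF4, TNFRSF9, TNFRSF18 and CD40 in CD45+ cells of 5 groups of 3 samples from the NMU experiment, glands and tumors. TNFRSF4 lies at 448 to 1227 in vehicle tumors and at 15.1 to 63.4 in vehicle glands, and CD40 lies lower in vehicle tumors than in vehicle glands.

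The question of the single-cell experiments was what TGFBRi changed on day 0, and in the whole gland 69 of the family's tests passed, 27 higher and 42 lower. Each class of each rat was summed, and TGFBRi was tested by edgeR's quasi-likelihood test over all genes with a threshold of 0.1 on the adjusted p; values are log2 changes of TGFBRi against vehicle. Rats are the replicates, so that p-values measure the spread between rats. Of the 69 calls, 41 held when each rat was left out in turn. By class, members passed as follows, beside the share of all genes that passed. In fibroblast-like cells 4 rose and 5 fell of 28 tested (30.8% of all genes), in basal-like cells 2 and 6 of 29 (45.5%), in luminal progenitor-like cells 4 and 5 of 27 (26.8%) and in mature luminal-like cells 5 and 5 of 25 (28.1%). In vascular endothelium-like cells 5 rose and 4 fell of 25 (32.1%), in lymphatic endothelium-like cells 1 and 2 of 17 (15%), in smooth muscle-like cells 1 and 2 of 25 (27.6%) and in Schwann cell-like cells 0 and 1 of 18 (10.7%). Among leukocytes, 2 rose and 7 fell of 30 in B cell-like cells (17%), 1 and 3 of 30 in T cell-like cells (8.95%), 1 and 1 of 19 in NK cell-like cells (2.71%), 1 and 0 of 31 in dendritic cell-like cells (7.53%) and 0 and 1 of 25 in macrophage-like cells (3.8%). The members' shares lay on both sides of those of all genes across the stromal and epithelial classes. In B cell-like cells 9 of 30 members passed beside 17% of all genes, with a median change of -0.36 against 0.00 over all genes.

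Immediate early genes, which rise with stress or dissociation and whose list was chosen after the data were seen, differed with treatment in several of these classes. Their sums in fibroblast-like cells were 2825 to 3827 CPM in vehicle and 5078 to 9026 in TGFBRi rats. The groups were also apart in smooth muscle-like (5161 to 5591 and 7773 to 10590), lymphatic endothelium-like (4304 to 4972 and 6948 to 10990), Schwann cell-like (6675 to 7971 and 9943 to 14730) and NK cell-like cells (4335 to 5134 and 5214 to 7105). In the other classes they overlapped. Heat shock genes were apart in luminal progenitor-like cells, the class of the main TNFSF18 and TNFRSF12A falls, with 842 to 1344 CPM in vehicle and 1349 to 2255 in TGFBRi rats, and, lower under TGFBRi, in macrophage-like (2422 to 5336 and 1249 to 2185) and dendritic cell-like cells (1568 to 2611 and 870 to 1567). Mean UMIs per cell of a rat were higher under TGFBRi without overlap in B cell-like (1737 to 2104 and 2333 to 3426), T cell-like (2528 to 2717 and 3069 to 4343), NK cell-like (2323 to 2878 and 2952 to 4096) and dendritic cell-like cells (4763 to 5784 and 5802 to 7583), and lower in macrophage-like cells (4738 to 6244 and 3078 to 4552). The part of these differences in the results that follow was not tested.

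Some calls fell in classes where the gene was much lower than elsewhere. In 20 of the 69, 10 higher and 10 lower, the vehicle level was under 5% of that in the gene's highest class, a limit chosen after the values were seen. CD27 passed in fibroblast-like and mature luminal-like cells at 0.288% and 0.903% of its T cell-like level, with changes of 1.34 and 1.78. Other higher calls of this kind were CD40LG in fibroblast-like cells (1.77), TNFRSF14 (1.51) and TNFSF13 (1.02) in mature luminal-like cells, TNFSF13 in basal-like (2.5) and vascular endothelium-like cells (1.16) and TNFSF10 in fibroblast-like (1.58) and luminal progenitor-like cells (1.79). TNFSF8 in mature luminal-like cells had a vehicle median of 0, so no fold is given. The lower calls were CD40 in T cell-like (-1.28), basal-like (-0.86) and luminal progenitor-like cells (-1.17), TNFRSF12A in T (-1.01) and B cell-like cells (-0.73), TNFRSF1A in B cell-like cells (-1.18), TNFRSF9 in basal-like cells (-1.59), TNFRSF21 in vascular endothelium-like cells (-0.76), and TNFSF15 (-2.70) and TNFSF18 (-3.79) in mature luminal-like cells. Several were lost without 1 rat: CD40LG without 6 of 9 rats in turn, TNFRSF14, TNFSF13, TNFSF8 and TNFSF15 in mature luminal-like cells without veh4, TNFSF10 in luminal progenitor-like cells without veh2, and TNFRSF1A in B cell-like cells without 5 of 9. TNFSF13 and TNFSF8 in mature luminal-like cells were also lost without veh2. The part of free RNA in these calls was not tested, and the account below is of the other calls unless it says otherwise.

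**Figure D4:**
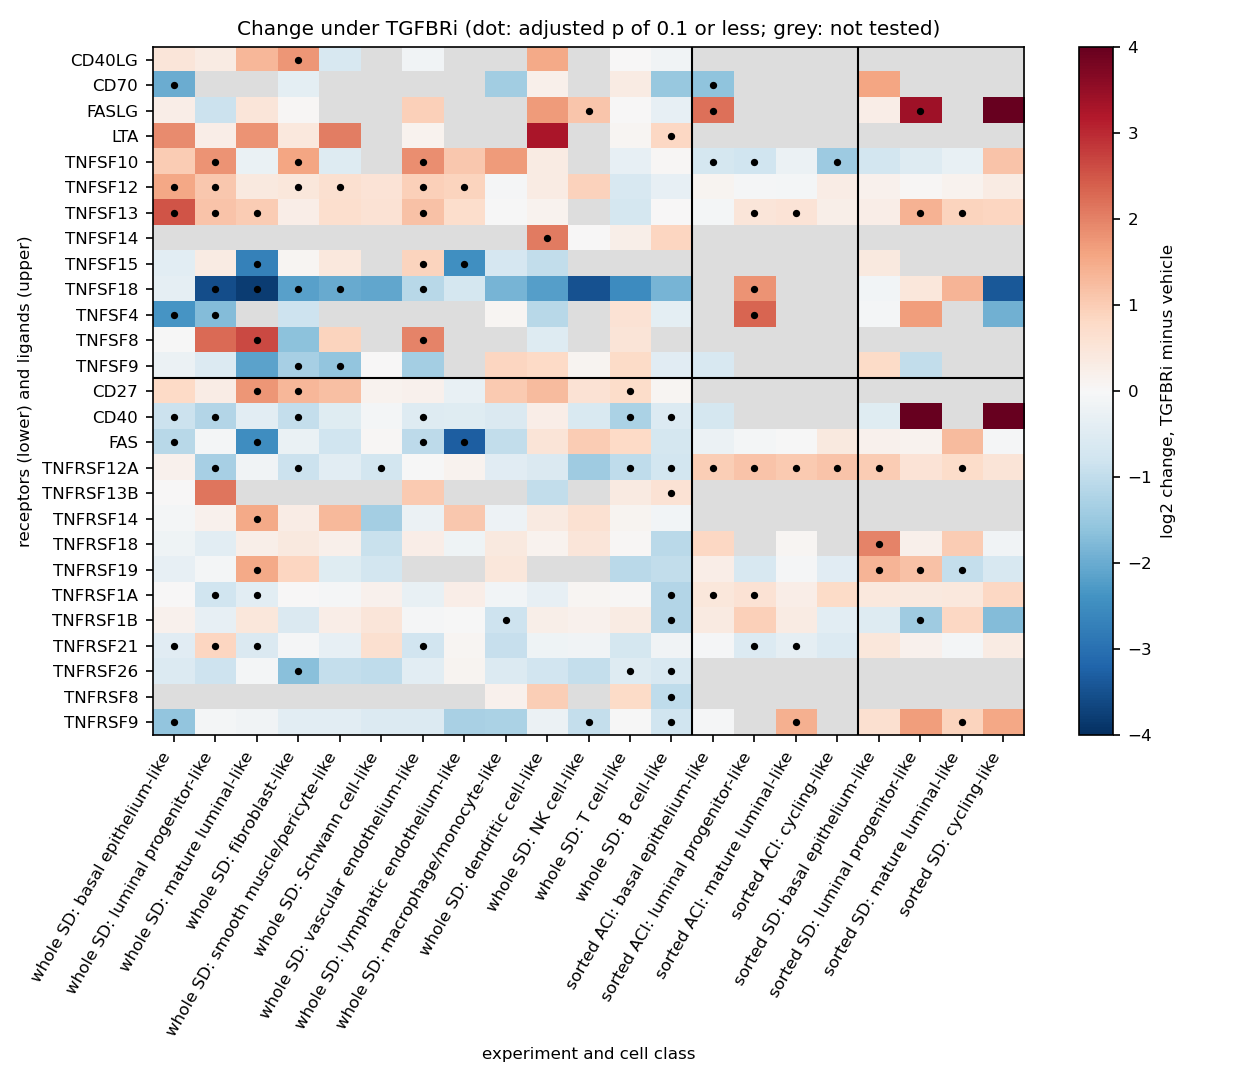
Log2 change under TGFBRi of members called at least once (rows) in 21 classes of 3 single-cell experiments (columns), with the color scale ending at 4 in either direction, dots for an edgeR adjusted p of 0.1 or less and grey for not tested. TNFSF18 is lower in the stromal and epithelial columns of the whole gland, and TNFSF12 is higher in its basal-like column.

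TNFSF18, the ligand of GITR, fell in 5 classes of the whole gland. In luminal progenitor-like cells it had 90.05, 94.2 and 182 CPM in the 3 vehicle rats and a lowest, median and highest value of 6.84, 11.3 and 17.9 in the 6 TGFBRi rats. The groups did not overlap (-3.54, SE 0.25, edgeR adjusted p = 8.9e-05). In fibroblast-like cells it fell from 62.2, 74.6 and 94.5 to 10.9, 18.4 and 30.0 (-2.16, SE 0.24, edgeR adjusted p = 0.00013). It also fell in smooth muscle-like cells (-2.02, SE 0.40, edgeR adjusted p = 0.0038) and in vascular endothelium-like cells (-1.10, SE 0.32, edgeR adjusted p = 0.025), the latter call lost without the vehicle rat veh2. The estimate was below 0 in all 13 classes, and in macrophage-like cells it did not pass (-1.87, SE 0.63, edgeR adjusted p = 0.166).

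Of the TNF family neighbors on the rat genome, TNFSF4, TNFSF18 and FASLG lie side by side on chromosome 13, and TNFSF13 next to TNFSF12 on chromosome 10. The reference promoters of 3 members with large changes are printed below in RefSeq's GRCr8 build, from 250 bases before to 50 after the gene's start, 5′ to 3′ on the strand of the gene. They are shown since these ligands and the receptor TNFRSF12A carry the results, and capitals mark a motif match on either strand. TATAAA is the TATA box. The core that SMAD proteins bind is CAGAC. The AP-1 site searched for was TGACTCA.

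Tnfsf18, chr13:76366603-76366902, plus strand: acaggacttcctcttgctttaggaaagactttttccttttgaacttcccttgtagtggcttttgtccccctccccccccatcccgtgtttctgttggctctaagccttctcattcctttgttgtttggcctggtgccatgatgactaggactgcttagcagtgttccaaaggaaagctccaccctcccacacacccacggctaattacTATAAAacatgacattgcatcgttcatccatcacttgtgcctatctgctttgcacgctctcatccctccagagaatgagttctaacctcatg

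Tnfsf13, chr10:54901766-54902065, minus strand: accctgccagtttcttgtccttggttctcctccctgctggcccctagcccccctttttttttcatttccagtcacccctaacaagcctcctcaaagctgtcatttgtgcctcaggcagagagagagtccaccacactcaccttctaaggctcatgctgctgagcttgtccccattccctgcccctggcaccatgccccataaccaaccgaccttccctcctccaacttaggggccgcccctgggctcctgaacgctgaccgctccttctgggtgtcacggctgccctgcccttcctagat

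Tnfrsf12a, chr10:13213599-13213898, minus strand: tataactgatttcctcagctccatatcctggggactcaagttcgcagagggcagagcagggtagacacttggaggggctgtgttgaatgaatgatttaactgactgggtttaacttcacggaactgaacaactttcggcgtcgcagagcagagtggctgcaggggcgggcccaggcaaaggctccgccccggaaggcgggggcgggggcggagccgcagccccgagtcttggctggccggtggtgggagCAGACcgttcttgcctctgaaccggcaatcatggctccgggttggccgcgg

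Of these, the TNFSF18 window holds 1 TATAAA, the TNFRSF12A window 1 CAGAC and the TNFSF13 window none of the 3. TATAAA occurs in 14.2% of 33469 promoters of this table, CAGAC in 50.1% and TGACTCA in 4.63%. Among the 28 members with a promoter there, 7, 17 and 2 held them. A match describes the letters only.

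The neighboring ligands TNFSF12 and TNFSF13 rose in basal-like cells. TNFSF12 (TWEAK) had 21.6, 23.7 and 31.3 CPM in vehicle rats and 59.98, 71.2 and 85.6 as lowest, median and highest value in TGFBRi rats (1.54, SE 0.16, edgeR adjusted p = 7.3e-05). Every TGFBRi rat exceeded every vehicle rat. It also rose in vascular endothelium-like cells, from 54.4, 63.4 and 95.04 to 146, 154 and 176 (0.94, SE 0.16, edgeR adjusted p = 0.0015). It rose as well in luminal progenitor-like (1.08), lymphatic endothelium-like (0.88), smooth muscle-like (0.65) and fibroblast-like cells (0.44), and the last 3 calls were lost without vehicle rat veh2, the fibroblast-like one also without veh1. In macrophage-like cells, the class with its highest level, it did not pass (-0.06, SE 0.19, edgeR adjusted p = 0.92). TNFSF13 (APRIL) rose in basal-like cells from 2.26, 2.40 and 3.58 to 10.6, 13.9 and 19.3 (2.5, SE 0.26, edgeR adjusted p = 7.3e-05). Its vehicle level there was 1.72% of that in macrophage-like cells, where the change was -0.03 (SE 0.26, edgeR adjusted p = 0.97). The low basal-like level held for the whole gland only: in sorted ACI cells its highest vehicle median was in basal-like cells, with 54.3 CPM. In the whole gland TNFSF13 also rose in luminal progenitor-like cells (1.14, SE 0.35, edgeR adjusted p = 0.042), a call lost without veh1 or veh4.

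Other ligands changed in stromal classes. TRAIL, TNFSF10, rose in vascular endothelium-like cells from 5.76, 12.6 and 18.7 to 42.1, 48.5 and 64.7 (1.85, SE 0.29, edgeR adjusted p = 0.00076), while in mature luminal-like cells, its main class, the change was -0.27 (SE 0.31, edgeR adjusted p = 0.58). TNFSF9, the ligand of TNFRSF9, fell in fibroblast-like cells from 31.6, 59.04 and 65.6 to 14.0, 21.2 and 33.7 (-1.34, SE 0.25, edgeR adjusted p = 0.0026). The lowest vehicle rat lay below the highest TGFBRi rat. TNFSF9 fell in smooth muscle-like cells too (-1.57, SE 0.23, edgeR adjusted p = 0.00061). CD70, the ligand of CD27, fell in basal-like cells (-1.99, SE 0.50, edgeR adjusted p = 0.0078), from 6.84, 14.9 and 15.8 to 0.915, 2.21 and 9.09, where the groups overlapped in 1 TGFBRi rat.

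Among receptors, TNFRSF12A fell in luminal progenitor-like cells. It had 1449, 2073 and 2131 CPM in vehicle rats and 595, 886 and 984 in TGFBRi rats, without overlap (-1.32, SE 0.20, edgeR adjusted p = 0.0021). It also fell in fibroblast-like cells, from 494, 512 and 703 to 325, 362 and 400 (-0.85, SE 0.13, edgeR adjusted p = 0.0007), and in Schwann cell-like cells (-0.73, SE 0.15, edgeR adjusted p = 0.0087). In basal-like cells, where its ligand rose, it did not pass (0.17, SE 0.16, edgeR adjusted p = 0.43), nor in mature luminal-like cells (-0.13, SE 0.14, edgeR adjusted p = 0.57).

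FAS, the death receptor, fell in several classes. In mature luminal-like cells it went from 6.72, 10.1 and 21.7 to 1.41, 2.36 and 3.23 (-2.49, SE 0.35, edgeR adjusted p = 0.00064), in basal-like cells by 1.10 on the log2 scale (SE 0.23) and in vascular endothelium-like cells by 1.04 (SE 0.21). Its lymphatic endothelium-like call (-3.31, SE 0.93) rested on few UMIs and was lost without veh2. In luminal progenitor-like cells it did not pass (-0.09, SE 0.26, edgeR adjusted p = 0.86). TNFRSF21 moved both ways. It rose in luminal progenitor-like cells, from 28.8, 33.9 and 43.1 to 56.6, 71.9 and 82.04 (0.86, SE 0.15, edgeR adjusted p = 0.0044), and fell in mature luminal-like cells, from 314, 330 and 467 to 225, 264 and 286 (-0.58, SE 0.13, edgeR adjusted p = 0.0091). Its fall in basal-like cells (-0.44, SE 0.18, edgeR adjusted p = 0.068) was lost without 6 of 9 rats in turn. TNFRSF1A fell in luminal progenitor-like cells from 117, 129 and 135 to 70.5, 78.1 and 92.1 (-0.81, SE 0.14, edgeR adjusted p = 0.0042) and in mature luminal-like cells by 0.43 on the log2 scale (SE 0.13), the latter call lost without veh1 or veh4.

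CD40, the receptor of T cell help, was called lower in 6 classes and higher in none. Its T cell-like, basal-like and luminal progenitor-like calls are among those under 5% above, and each was lost without veh1, the basal-like one also without ly1. Among T cell-like clusters of vehicle rats, that led by IL22 and RORA had 74.6 CPM of CD40. The others had 2.85 and 3.29, and the part of cluster makeup was not tested. In fibroblast-like cells CD40 went from 19.2, 29.2 and 30.2 to 12.96, 14.6 and 19.2 (-0.95, SE 0.16, edgeR adjusted p = 0.0013), and in vascular endothelium-like cells by 0.52 on the log2 scale (SE 0.14). In macrophage-like cells it did not pass (-0.57, SE 0.20, edgeR adjusted p = 0.18), but passed without the vehicle rat veh4. TNFRSF26 fell in 3 classes, among them B cell-like cells, from 105.3, 127 and 135 to 72.1, 83.3 and 92.7 (-0.64, SE 0.10, edgeR adjusted p = 0.0037). The other 2 were fibroblast-like cells (-1.68, SE 0.31, edgeR adjusted p = 0.0025) and T cell-like cells (-0.52, SE 0.14, edgeR adjusted p = 0.055), the latter call lost without 3 of 9 rats in turn. TNFRSF19 rose in mature luminal-like cells (1.51, SE 0.42, edgeR adjusted p = 0.026), and in basal-like cells, its highest class, it did not pass (-0.32, SE 0.40, edgeR adjusted p = 0.56).

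The remaining members were low in most classes. TNFSF15, a ligand of TNFRSF25, was highest in macrophage-like cells at 25.9 and rose in vascular endothelium-like cells (0.89, SE 0.23, edgeR adjusted p = 0.015); it fell in lymphatic endothelium-like cells (-2.45, SE 0.82, edgeR adjusted p = 0.069), a call lost without 4 of 9 rats in turn. TNFSF8 rose in vascular endothelium-like cells (1.98, SE 0.48, edgeR adjusted p = 0.010). TNFSF4 (OX40L) was highest in dendritic cell-like cells at 16.2 and fell in basal-like cells, at 5 UMIs per rat on average (-2.35, SE 0.71, edgeR adjusted p = 0.02); its fall in luminal progenitor-like cells (-1.74, SE 0.62, edgeR adjusted p = 0.074) was lost without 7 of 9 rats in turn. TNFSF14 rose in dendritic cell-like cells (2.07, SE 0.55, edgeR adjusted p = 0.059), a call lost without 5 of 9 rats in turn. TNFRSF1B fell in B cell-like cells (-1.19, SE 0.24, edgeR adjusted p = 0.011), and its macrophage-like call (-0.84, SE 0.23, edgeR adjusted p = 0.094) was lost without 8 of 9 rats in turn. Also in B cell-like cells, TNFRSF9 fell (-0.78, SE 0.19, edgeR adjusted p = 0.023), a call lost without veh1, and TNFRSF8 fell (-1.0, SE 0.36, edgeR adjusted p = 0.097), a call lost without 7 of 9 rats in turn. LTB, TNFRSF17, TNFRSF13C, TNFSF13B, TNFRSF4, TNFRSF18 and TNFRSF25 passed in no class of the whole gland.

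Lymphocyte-like classes, where UMIs per cell were higher under TGFBRi as given above, held further changes. In B cell-like cells CD40 fell from 514, 577 and 624 CPM to 353, 424 and 464 (-0.55, SE 0.13, edgeR adjusted p = 0.021), without overlap. LTA rose there from 5.88, 10.1 and 11.5 to 13.6, 18.4 and 23.2 (0.82, SE 0.19, edgeR adjusted p = 0.02). TNFRSF13B, the APRIL and BAFF receptor, rose from 8.82, 10.2 and 13.5 to 14.1, 17.1 and 20.9 (0.57, SE 0.15, edgeR adjusted p = 0.035), and that call was lost without the vehicle rat veh1. TNFRSF13C did not pass (0.26, SE 0.12, edgeR adjusted p = 0.196), but passed without the vehicle rat veh4. The B cell-like class held clusters of unlike level. In vehicle rats, CD40 had medians of 632 CPM in its largest cluster (15090 cells) and 342 in a cluster of 6757 cells. In the same order LTA had 5.70 and 17.9, and TNFRSF13B 7.54 and 22.2. The part of cluster makeup in the changes of this class was not tested.

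In T cell-like cells CD27 rose, from 244, 403 and 403 to 516, 549 and 658 (0.72, SE 0.12, edgeR adjusted p = 0.008), and held without each rat in turn. Its partner ligand CD70 was highest in dendritic cell-like cells. CD27 differed among the T cell-like clusters, with vehicle medians of 474, 69.8 and 357 CPM. The part of cluster makeup in its rise was not tested. The costimulatory receptors TNFRSF4 (0.84, SE 0.33, edgeR adjusted p = 0.17) and TNFRSF18 (0.06, SE 0.12, edgeR adjusted p = 0.82) did not pass. In NK cell-like cells FASLG rose, from 24.0, 44.3 and 52.5 to 60.7, 88.97 and 107.6 (1.12, SE 0.28, edgeR adjusted p = 0.04), and TNFRSF9 fell, from 362, 693 and 854 to 226, 330 and 430 (-0.94, SE 0.20, edgeR adjusted p = 0.017). The NK groups of TNFRSF9 overlapped and those of FASLG did not. FASLG did not pass without vehicle rat veh1 or veh2, nor TNFRSF9 without veh2.

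In sorted epithelium several members moved the other way. In sorted ACI cells 18 tests passed, 12 higher and 6 lower: 3 members rose and 2 fell of 16 tested in basal-like cells (36.2% of all genes), 5 and 2 of 11 in luminal progenitor-like cells (28.5%), 3 and 1 of 12 in mature luminal-like cells (25.6%) and 1 and 1 of 9 in cycling cells (1.63%). In sorted SD cells 11 passed, 9 higher and 2 lower: 3 and 0 of 20 in basal-like cells (29.6%), 3 and 1 of 17 in luminal progenitor-like cells (29%), 3 and 1 of 13 in mature luminal-like cells (30.1%) and 0 of 15 in cycling cells (0.0158%), where 2 had an unadjusted p of 0.05 or less and DESeq2 called 0. The SD cycling test had 2 vehicle rats with enough cells and 6 TGFBRi rats. Of the 18 ACI calls, 9 held without each rat in turn. Of the 11 SD calls 1 did, TNFRSF18 in basal-like cells, at a vehicle median of 0.606 CPM. The SD calls numbered 1 without vehicle rat SD3, 2 without SD1 and 5 without SD2. Immediate early genes were lower under TGFBRi without overlap in the 4 tested classes of both strains. Vehicle and TGFBRi sums were 23850 to 31490 and 12920 to 15230 CPM in ACI basal-like cells, 21710 to 28380 and 12580 to 16340 in luminal progenitor-like, 38780 to 51370 and 28020 to 30200 in mature luminal-like and 17640 to 17900 and 10970 to 13320 in cycling cells. In SD rats they were 11380 to 12260 and 3308 to 8242 in basal-like, 7788 to 12510 and 4514 to 7503 in luminal progenitor-like, 20470 to 23480 and 6951 to 18040 in mature luminal-like and 10280 to 12140 and 3969 to 8032 in cycling cells. Their part in the sorted calls was not tested.

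TNFRSF12A rose in several classes of sorted cells. In ACI luminal progenitor-like cells it had 241, 342 and 390 CPM in vehicle rats and 533, 543 and 601 in TGFBRi rats (1.13, SE 0.17, edgeR adjusted p = 0.0012). In ACI basal-like cells it had 247, 442 and 480 against 564, 685 and 707 (0.97, SE 0.21, edgeR adjusted p = 0.0057), and neither pair of groups overlapped. In SD basal-like cells the change was 1.00 (SE 0.37, edgeR adjusted p = 0.072), where 1 TGFBRi rat had 2139, and the call was lost without any 1 of the 3 vehicle rats. In SD luminal progenitor-like cells it did not pass (0.56, SE 0.36, edgeR adjusted p = 0.28). TNFSF18 rose in ACI luminal progenitor-like cells, from 5.20, 5.54 and 14.3 to 10.6, 15.5 and 32.2, with overlap (1.79, SE 0.45, edgeR adjusted p = 0.015). That call was lost under 1 of 4 other settings. In SD luminal progenitor-like cells TNFSF18 did not pass (0.45, SE 0.86, edgeR adjusted p = 0.73). TNFRSF19 rose in SD basal-like cells (1.35, SE 0.29, edgeR adjusted p = 0.012), a call lost without SD3.

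Further members were called in sorted cells. In ACI cells TNFRSF12A also rose in mature luminal-like (1.04, SE 0.22) and cycling cells (1.13, SE 0.19), the latter call lost without ACI12, and TNFRSF1A in basal-like (0.46, SE 0.10) and luminal progenitor-like cells (0.56, SE 0.16), the latter lost without ACI16. TNFSF10 fell in luminal progenitor-like cells (-0.78, SE 0.20, edgeR adjusted p = 0.015), and its basal-like (-0.70) and cycling (-1.46) calls were each lost without 5 of 6 rats in turn. TNFRSF21 fell in luminal progenitor-like (-0.56, SE 0.15) and mature luminal-like cells (-0.35, SE 0.13), and TNFSF13 rose in both (0.48, SE 0.14 and 0.53, SE 0.16). The mature luminal-like calls were lost without 4 and 3 of 6 rats in turn. TNFRSF9 rose in mature luminal-like cells from a vehicle median of 1.85 CPM (1.41, SE 0.29, edgeR adjusted p = 0.0071). TNFSF4 rose in luminal progenitor-like cells (2.33, SE 0.71), on 0, 2 and 3 UMIs in vehicle and 4, 7 and 7 in TGFBRi rats, a call lost without 3 of 6 rats in turn, and in basal-like cells FASLG rose (2.19, SE 0.75) and CD70 fell (-1.62, SE 0.56), both lost without at least 2 rats in turn. In SD cells TNFSF13 rose in luminal progenitor-like (1.39, SE 0.47) and mature luminal-like cells (0.88, SE 0.26), TNFRSF19 rose in luminal progenitor-like (1.18, SE 0.28) and fell in mature luminal-like cells (-0.96, SE 0.27), TNFRSF18 rose in basal-like cells (1.99, SE 0.41), TNFRSF9 (0.88, SE 0.29) and TNFRSF12A (0.72, SE 0.28) rose in mature luminal-like cells, and TNFRSF1B fell in luminal progenitor-like cells (-1.41, SE 0.45). FASLG passed in SD luminal progenitor-like cells from a vehicle median of 0, so no fold is given. TNFRSF18 in SD basal-like cells had a vehicle median of 0.606 CPM.

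**Figure D5:**
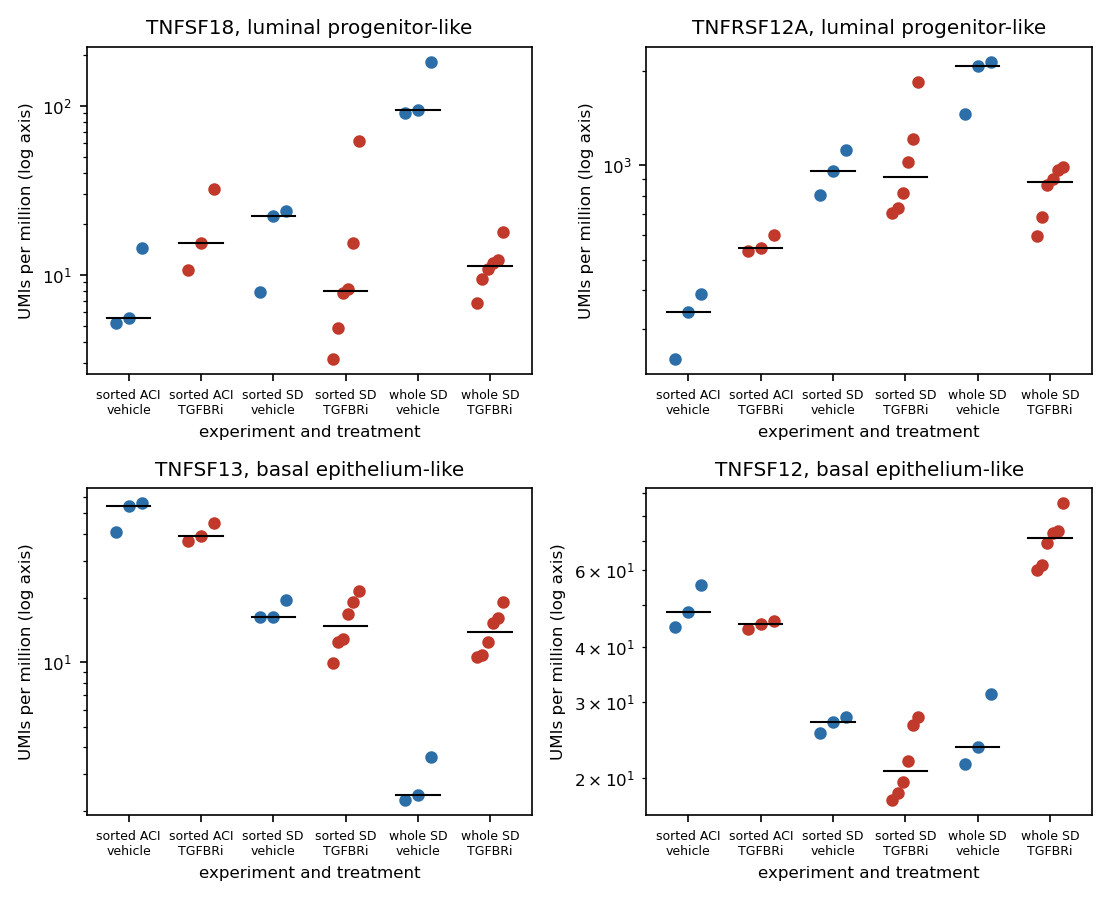
CPM (log axis) per rat of TNFSF18 and TNFRSF12A in luminal progenitor-like cells and of TNFSF13 and TNFSF12 in basal-like cells, for sorted ACI, sorted SD and whole SD glands, with blue points for vehicle, red points for TGFBRi and lines at the medians. TNFRSF12A in luminal progenitor-like cells lies higher under TGFBRi in sorted ACI cells and lower in the whole gland.

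The difference between experiments was tested directly with edgeR, after those calls were seen. Between ACI and SD effects edgeR called 0 members, with an unadjusted p of 0.05 or less for 2 of 26 in basal-like, 3 of 25 in luminal progenitor-like and 0 of 24 in mature luminal-like cells, where 1.03%, 0.00695% and 0.33% of all genes passed. Against the whole gland, the ACI effect differed for 2 members in basal-like cells (24.9% of all genes), 7 in luminal progenitor-like cells (16.6%) and 5 in mature luminal-like cells (12%), and the SD effect for 9 (42.8%), 9 (29.4%) and 6 (32.6%). In luminal progenitor-like cells the ACI effect minus the whole-gland effect was 5.24 for TNFSF18 (SE 1.13, edgeR adjusted p = 0.0057), 2.44 for TNFRSF12A (SE 0.46, edgeR adjusted p = 0.0023) and -2.58 for TNFSF10 (SE 0.66, edgeR adjusted p = 0.015). TNFRSF1A (1.36), TNFRSF21 (-1.43), TNFSF4 (4.17) and TNFSF12 (-1.15) made up the 7. The SD effect minus the whole-gland effect there was 4.00 for TNFSF18, 1.89 for TNFRSF12A, -2.30 for TNFSF10, 1.19 for TNFRSF1A, 3.40 for TNFSF4, -1.02 for TNFSF12 and 1.26 for TNFRSF19, and CD40 (5.81, SE 2.09) and FASLG (4.12, SE 0.98) passed on few UMIs. In mature luminal-like cells FAS differed by 2.45 in ACI and 3.75 in SD cells, TNFSF18 by 5.37 and 5.16, TNFRSF12A by 1.15 and 0.85, TNFRSF9 by 1.55 and 1.04 and TNFRSF19 by -1.57 and -2.46, and TNFRSF1A passed in SD cells (0.86). Within sorted ACI cells alone, TNFSF18 had enough counts for a test in 1 class only, luminal progenitor-like cells. Its ACI value of 5.37 thus rests on under 10 UMIs in mature luminal-like cells. In basal-like cells the ACI effect minus the whole-gland effect was -2.59 for TNFSF13 (SE 0.35, edgeR adjusted p = 6.8e-05) and -1.44 for TNFSF12 (SE 0.27, edgeR adjusted p = 0.00085). The SD difference there was -2.30 for TNFSF13 and -1.44 for TNFSF12, and it was 1.23 for FAS, -1.81 for TNFSF10, 2.15 for TNFRSF9, 2.12 for TNFRSF18, 3.52 for CD70, 0.86 for TNFRSF21 and 1.65 for TNFRSF19. The experiments differ in sort, chemistry, Cell Ranger version and cell filters and, for ACI, in strain and age at dosing. These cannot be told apart. Immediate early genes were lower under TGFBRi in the sorted classes, as given above, while in whole-gland luminal progenitor-like cells they summed to 6946 to 13130 CPM in vehicle and 6679 to 11490 in TGFBRi rats. Their part in the family's changes was not tested.

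Few members passed between TGFBRi and vehicle in bulk. Of 32 treatment comparisons 3 had a member that passed, with 4 calls among them. In the other 29, where 0 to 1.31% of all genes passed, limma called no member. There 65 of 857 member tests had an unadjusted limma p of 0.05 or less. Of all genes, 141 of 13618 (adult parous CD45+ cells) to 3013 of 15181 (day 0 ACI luminal cells) had such a p. The members' share lay between these, and the share of all genes over the 29 together was not counted. In these 29 edgeR called 0 members and DESeq2 8. TNFRSF12A did not pass on day 0 in bulk basal cells (-0.57, SE 0.63, limma adjusted p = 0.60 in ACI and 0.28, SE 0.24, limma adjusted p = 0.98 in SD rats).

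In basal cells of young ACI rats on day 0, where 3.34% of all genes passed, 2 of 30 members rose, both of the BAFF system and both on few reads. TNFSF13B had 3, 7 and 9 reads in TGFBRi and 0, 0 and 0 in vehicle rats (3.57, SE 0.71, limma adjusted p = 0.020), and TNFRSF13B 5, 2 and 5 against 0, 1 and 0 (2.70, SE 0.67, limma adjusted p = 0.043). B cell markers summed to 9.77 to 22.3 RPM in the TGFBRi rats and 0.16 to 2.09 in the vehicle rats, and leukocyte markers to 35.8 to 74.3 against 7.45 to 30.0; their part was not tested. Of the TGFBRi libraries, 2 were shallower than the others, with 6562769 and 4194912 reads on genes and 2.01 and 3.19 normalized units per read, against 15136358 reads and 1.01 in the third and 12382292 to 18781674 reads and 0.815 to 1.16 in vehicle rats. TNFRSF13B was lost without 5 of 6 rats in turn and TNFSF13B without 3. On the recovered reads edgeR called neither (adjusted p = 0.12 for TNFSF13B and 0.22 for TNFRSF13B), and both were lost with only the compared groups in the fit (limma adjusted p = 0.076 and 0.15). Fitted values against groups near 0 reads, here and for TNFSF4, depend on the added 1 and are no bound.

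In CD45+ cells of the same day, where 2.85% of all genes passed, TNFSF12 was the 1 of 32 members called. It had 14.5, 19.2 and 19.9 RPM in TGFBRi and 33.1, 53.6 and 30.5 in vehicle rats (-1.30, SE 0.34, limma adjusted p = 0.049). The call was lost without 4 of 6 rats in turn. Fibroblast markers summed to 889 to 7183 in TGFBRi and 12500 to 32150 in vehicle samples, and their part was not tested. TNFSF12 did not pass with edgeR on reads (adjusted p = 0.064), with TMM scaling (limma adjusted p = 0.058) or with only the compared groups in the fit (limma adjusted p = 0.31). Without vehicle replicate 1, the one high in T cell markers, 5.33% of all genes and 8 members passed: CD27 (2.99), CD40LG (5.76), TNFRSF13B (4.89), TNFRSF14 (2.83), TNFRSF26 (3.90), TNFRSF4 (4.78) and TNFSF8 (6.48) were higher and TNFSF12 (-1.45) lower. The vehicle samples left were those low in T cell markers, as given above. Without replicate 1, 10 members also passed as higher and 2 as lower in vehicle CD45+ cells on day 14 against day 0, and with it none did. Among them, the TNFRSF14 difference went from 2.21 to 3.32. The part of T cell content in these calls was not tested.

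In adult virgin basal cells, where 8.73% of all genes passed, TNFSF4 (OX40L) fell. It had 0, 0, 0 and 1 reads in TGFBRi and 19, 30, 37 and 40 in vehicle rats (-4.53, SE 0.87, limma adjusted p = 0.0056), and it was the 1 of 28 members called. With the animal number as a block and only the compared groups in the fit, TNFSF4 did not pass (-4.53, SE 1.05, limma adjusted p = 0.10). In parous rats the TGFBRi samples had 12, 11, 27 and 8 reads and the vehicle samples 17, 1, 1 and 25, and the virgin effect differed from the parous one by -5.69 (SE 1.23, limma adjusted p = 0.038), in a comparison where 1.04% of all genes passed. That difference was lost without 10 of 16 rats in turn, with edgeR on reads (adjusted p = 0.094), at a pseudocount of 5 (limma adjusted p = 0.052) and at a mean of at least 10 (limma adjusted p = 0.053). In virgin basal samples leukocyte markers summed to 0.209 to 11.2 in TGFBRi and 3.74 to 207 in vehicle rats and endothelium markers to 15.5 to 32.1 against 22.8 to 426; their part was not tested.

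Among 8 comparisons of E2, parity or time in vehicle rats, 2 had a member that passed. In luminal cells of vehicle rats, TNFSF13 had 24.96, 28.8, 23.4 and 29.6 RPM without E2 and 74.5, 80.7, 54.03 and 64.03 with it (1.44, SE 0.25, limma adjusted p = 0.0054), where 1.48% of all genes passed and 1 of 29 members. In TGFBRi rats it had 23.5, 17.5 and 21.8 without E2 and 65.1 to 148 in the 7 tumor-free samples with E2. All vehicle rats with E2 bore tumors, so that E2 and tumors cannot be told apart in that test. TNFRSF9 rose in vehicle luminal cells of ACI rats from 1.20, 0.85 and 2.43 on day 0 to 12.1, 13.01 and 12.6 on day 14 (3.18, SE 0.65, limma adjusted p = 0.043), where 0.389% of all genes passed and 1 of 28 members, and the call was lost without each of the 6 rats in turn.

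Pathway genes came from a list of 46 adaptors, kinases, NF-κB subunits and inhibitors, caspases and their regulators, NF-κB targets and family genes outside the symbol rule. In fibroblast-like cells of the whole gland 3 rose and 27 fell of 44 tested, where 30.8% of all genes passed, among them 8 of 8 NF-κB targets with a median change of -1.51, such as IL6 (-2.15, SE 0.23, edgeR adjusted p = 0.00012) and CXCL1 (-2.20, SE 0.27, edgeR adjusted p = 0.00024), and TNFAIP3, the NF-κB feedback enzyme (-1.80, SE 0.33, edgeR adjusted p = 0.0024). In mature luminal-like cells 2 rose and 21 fell of 44 (28.1% of all genes), in basal-like cells 7 and 19 of 46 (45.5%) and in vascular endothelium-like cells 2 and 15 of 43 (32.1%). In luminal progenitor-like cells 1 rose and 8 fell of 45, a share below that of all genes (26.8%). In smooth muscle-like cells 2 rose and 12 fell of 44 (27.6%). The counts were 1 and 8 of 43 in lymphatic endothelium-like (15%) and 1 and 7 of 41 in Schwann cell-like cells (10.7%). Of leukocytes, NK cell-like cells had 7 higher and 1 lower of 37 (2.71%), T cell-like cells 2 and 3 of 43 (8.95%), dendritic cell-like cells 2 and 3 of 41 (7.53%), B cell-like cells 3 and 8 of 42 (17%) and macrophage-like cells 0 and 7 of 43 (3.8%). In sorted ACI cells 16 were higher and 4 lower of 42 in luminal progenitor-like cells (28.5%), with CXCL1 at 1.37, 13 and 9 of 45 in basal-like (36.2%), 5 and 4 of 42 in mature luminal-like (25.6%) and 4 and 0 of 39 in cycling cells (1.63%). In sorted SD cells 3 were higher and 8 lower of 45 in basal-like (29.6%), 7 and 6 of 44 in luminal progenitor-like (29%), 6 and 5 of 42 in mature luminal-like (30.1%) and 0 of 44 in cycling cells (0.0158%). In bulk, the TGFBRi comparisons called EDA (4.65, SE 1.03), TRAF1 (4.44, SE 1.08) and TRAF4 (-1.04, SE 0.25) in day 0 ACI basal cells and RIPK1 (-0.96, SE 0.28) in adult virgin basal cells.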

How the data were processed

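The deposited bulk signal per gene was made by the authors with STAR 2.5.1b (rn6) and HTSeq, and scaled by size factors of DESeq2 1.30.1. Whole reads were recovered from 100% of 2526805 values above 0 (relative tolerance 0.001). In 7 samples the step of 1 read lay within 0.011 of 1, which leaves it less certain there. Rows of no gene, 23.1 to 42.5% of reads in adult and E2 files, were left out. Label fields disagreed on treatment for the basal and luminal samples of 1 day 7 vehicle rat, and on the day for the CD45+ sample of 1 day 7 TGFBRi rat. The treatment and day fields were used, and no call is of a day 7 comparison. Day 7 samples did enter the spread used for the day 0 and day 14 tests of their fraction. limma 3.58.1 (trend, robust) was used on log2(value + 1) over genes summing to 10 or more, in 1 model per fraction and experiment, and edgeR 4.0.16 and DESeq2 1.42.0 on the recovered reads were alternatives. Folds of low genes are understated by the pseudocount. Single-cell values are deposited UMI counts, made by the authors with Cell Ranger 4.0.0 and 7.0.0 and filtered by them; sorted cells hold no cell with a PTPRC UMI and at least 2 keratin UMIs each. They were clustered per experiment with scanpy 1.11.5 (Leiden resolution 0.8, 20 neighbours, 30 components, 2000 variable genes), summed per rat and class (at least 10 cells, genes of at least 10 counts) and tested by edgeR. Doublets were scored and removed only as an alternative. Parts of 1 rat were averaged. P-values were Benjamini-Hochberg adjusted over all genes. Scripts were tested on simulated data. The members and lists were chosen with earlier results of these data known. Members past the threshold of a comparison were named (at most the 10 of largest change), with others of known role and up to 5 pathway genes; pathway examples beyond that rule and lists marked so were chosen after values were seen. Alternatives were other tools, filters, pseudocounts, scaling, compared groups only, and leaving out each rat. In adult rats, animals with the same number in TGFBRi and vehicle groups did not deviate together (correlations -0.566 to 0.338), so that numbers did not pair samples.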

Additional observations from a re-analysis of the deposited data

Results flagged for a closer look

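Among the groups of 4 to 10 samples that were examined, 6, or 5.61% of them, had a sample far from the others, close to the 1 in 20 that chance gives. They were TNFSF4 in adult virgin basal cells under TGFBRi (0.0485 RPM in 1 rat), TNFRSF12A in sorted SD basal-like cells (2139 CPM in 1 TGFBRi rat), FASLG in sorted SD luminal progenitor-like cells (0.656), and, in whole glands of TGFBRi rats, CD70 in basal-like cells (9.09), CD27 in mature luminal-like cells (18.4) and TNFSF12 in smooth muscle-like cells (122).

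Effects of TGFBRi that differed between groups by edgeR or limma included the virgin minus parous effect of TNFSF4 in basal cells (-5.69), which edgeR did not call (adjusted p = 0.094). The differences between single-cell experiments given here are those where both effects passed in opposite directions. In luminal progenitor-like cells the sorted ACI effect minus the whole-gland effect was -2.58 for TNFSF10, 1.36 for TNFRSF1A, -1.43 for TNFRSF21, 4.17 for TNFSF4, 5.24 for TNFSF18 and 2.44 for TNFRSF12A. In mature luminal-like cells the sorted SD effect minus the whole-gland effect was -2.46 for TNFRSF19. Sort, chemistry, Cell Ranger version and cell filters differ between these experiments, as do strain and age at dosing for ACI. These cannot be told apart.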

How the results depend on the processing

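Bulk calls by TGFBRi numbered 4 members. They were 1 with edgeR, 12 with DESeq2, 2 with a mean of at least 10 and 1 with only the compared groups in the fit, and 2 to 11 when each library was left out in turn. The 11 came without vehicle replicate 1 of day 0 ACI CD45+ cells, and without 1 other library the count reached 8 (NMU luminal cells, vehicle rat 3) or 7 (day 0 basal or luminal cells, TGFBRi rat 3). The tumor-bearing TGFBRi group with E2 has 2 rats, so leaving out 1 leaves 1 sample, and its count is not given. The animal number as a replicate block was fitted only in adult rats, with the compared groups alone. There the TNFSF4 call in virgin basal cells was lost (limma adjusted p = 0.10). The other 3 calls, in young rats, were not refitted with a block. Between basal and luminal cells 20 passed with the rat as a block, 20 with only the compared groups and no block, and 17 with all groups, with 14 to 19 across left-out libraries. Members called by E2, parity or time numbered 2, with 1 by edgeR, 8 by DESeq2, 1 at a pseudocount of 5 and 1 to 14 across left-out libraries, the 14 again without that vehicle replicate. Members whose effect differed numbered 1, with 0 by edgeR, 3 by DESeq2, 0 at a pseudocount of 5, 0 at a mean of at least 10 and 0 to 9 across left-out libraries. Pathway genes called by TGFBRi in bulk numbered 4, with 1 by edgeR, 17 by DESeq2, 8 with only the compared groups and 1 to 14 across left-out libraries. The 98 single-cell calls became 93 with DESeq2 and 88 to 116 across left-out rats, the 116 without the whole-gland vehicle rat veh4; 51 of the 98 held without each rat in turn. Without the cells of highest doublet score 8 were lost and 8 gained, and 6 of the 8 lost were among the calls under 5% of the gene's highest class. No result changed direction under these alternatives. The low calls rest on few reads, and the cause of these shifts was not tested.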
